A study of Mus musculus with 82 samples.

Results

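The mRNAs of 69 splicing factor genes were followed through mouse hematopoietic stem cells (HSCs) and their progeny, out of 55376 genes counted. The members were taken by symbol from the deposited gene counts: the numbered Srsf genes (11 SR proteins), the Hnrnp genes (20 hnRNPs), the Sf3a and Sf3b genes (9 SF3 subunits), the U2af genes (3), the numbered Prpf genes (13), and the Snrp genes (13 Sm and snRNP proteins). The rule itself uses symbols only. Pseudogenes carrying the suffix -ps, 4 in number, were left out, but Snrpert, which has no such suffix, is also annotated as a processed pseudogene.

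Introns are removed from pre-mRNA by the spliceosome, which is built anew on each intron from small nuclear ribonucleoproteins (snRNPs). U1 recognises the start of the intron, U2AF and the SF3 complexes help U2 settle at its end and branch point, and the U4/U6.U5 tri-snRNP, where many Prpf proteins sit, completes the catalytic machine. SR proteins mostly promote the use of nearby splice sites and hnRNPs often oppose it, so the balance between them shapes alternative splicing. In blood, SF3B1, SRSF2 and U2AF1 are recurrently mutated in human clonal hematopoiesis and myelodysplastic syndromes, and PRPF8 less often.

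HSCs were sorted from bone marrow of male C57BL/6J mice by a gate on CD150+ cells that lacked lineage markers, CD34 and Flk2 and carried Sca-1 and c-kit. Young mice were 3 to 4 months old and gave 4 mRNA-seq libraries from pooled animals, while old mice were 24 to 26 months old and gave 8 libraries, each from an individual. Young mice came from The Jackson Laboratory and old mice from the NIA Aged Rodent Colony. Age therefore cannot be told apart from source, nor in the mRNA-seq from pooling. Chromatin came from 4 young and 4 old ATAC-seq libraries, 2 young and 2 old H3K27ac libraries, and 2 young libraries each of H3K4me3 and H3K27me3. For the knockdown, old HSCs were infected with lentivirus carrying a control shRNA or 1 of 2 shRNAs (shRNA1, shRNA2) against a shorter variant of Btaf1, a regulator of TATA-binding protein. Infected cells, marked by GFP, were sequenced after 3.5 days in culture, or after transplantation as HSCs recovered from irradiated young female recipients that had also received helper progenitors, with 2 libraries for each shRNA and setting. Each transplanted library pooled cells of several recipients. Common myeloid progenitors (CMP), granulocyte-macrophage progenitors (GMP) and megakaryocyte-erythroid progenitors (MEP) of young wild-type mice gave 2 libraries each. For the progenitor and cultured libraries nothing states whether replicates came from separate animals or cultures, so p-values there measure only the spread between libraries, which may be technical.

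Reads on genes numbered 20475764 to 24654742 in the HSC libraries of both ages, 37292602 to 42737054 in the shRNA libraries and 33177394 to 36510850 in the progenitor libraries. Levels below are CPM, a gene's reads relative to the library's total, scaled by TMM over all 30 mRNA-seq libraries. Fold changes and standard errors (SE) come from edgeR's fit of each comparison, and a member is called when edgeR's quasi-likelihood test gives a Benjamini-Hochberg adjusted p under 0.05 over all genes tested. Most marker sums followed the labels. The sum of 9 LT-HSC markers was 3620 to 3794 CPM in young HSCs against 1265 to 1268 in CMP. In MEP 8 erythroid markers summed to 9011 to 9461 CPM against 547 to 557 in CMP. In GMP 8 myeloid markers summed to 73481 to 74346 CPM against 18570 to 22686 in CMP. A list of 8 megakaryocyte progenitor markers ran against the MEP label, at 70.6 to 87.1 CPM in MEP, 778 to 792 in CMP and 48.5 to 95.1 in GMP. Of the 7 tested, 6 were lower in MEP than in CMP and 0 higher. A trace of B cell transcripts, 8 markers summing to 77.2 to 139 CPM in young and 33.5 to 40.9 CPM in old HSCs, also moved with age. So did the 8 megakaryocyte progenitor markers (1488 to 1576 CPM in young, 1826 to 2142 CPM in old HSCs), of which 4 were called higher and 2 lower. Among 8 myeloid markers, whose sum was 134 to 161 CPM in young and 269 to 325 CPM in old HSCs, Prtn3 carried the rise (105 to 121 against 249 to 302 CPM), and of the 6 tested 1 was higher and 2 lower, with a median log2 fold change of -0.30. The 8 erythroid markers summed to 169 to 237 CPM in young and 62.4 to 192 CPM in old HSCs, with 6 lower and both globin genes higher. The part of these other cell types in the age results was not tested. In such bulk libraries, fewer cells of a type and less RNA per cell cannot be told apart. Of the 69 members, 27 share exon bases with another annotated gene, and 7 share over 25% of them (Snrpf, U2af1l4, Srsf4, Snrpn, Hnrnpab, Hnrnpf and Srsf2), which makes their counts less certain because no source used here gives the strand setting of the counting. Hnrnpa1 has processed pseudogene copies elsewhere in the genome, and its counts are uncertain for that reason.

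Levels per kilobase of exon were compared in young HSCs first. Srsf5, an SR protein, stood highest at 233 ± 5.06 CPM per kb (SD, n = 4). Hnrnpa2b1 and Hnrnpk, both abundant hnRNPs that also act in RNA transport and stability, followed at 169.1 ± 5.18 and 166.7 ± 4.67 CPM per kb. Srsf7 came next at 166.1 ± 7.24 CPM per kb, and the ranges of Hnrnpa2b1, Hnrnpk and Srsf7 overlapped, so their order is not resolved. At the other end lay 3 members. Snrpn, the imprinted paralog of the core Sm gene Snrpb, was at 2.95 ± 0.355 CPM per kb. Srsf12, an SR protein known from brain and testis, was at 1.27 ± 0.322 and U2af1l4, a relative of U2af1, at 0.275 ± 0.0355 CPM per kb.

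Summed over all 69 members, the level was 13871 to 14753 CPM in young and 13616 to 14803 CPM in old HSCs, so the ages overlapped fully. It was 20838 to 20983 CPM in cultured control HSCs, 18721 to 19069 CPM in transplanted control HSCs, 25913 to 26354 CPM in CMP, 26788 to 26853 CPM in GMP and 33743 to 33956 CPM in MEP. The sum of 14 cycling-cell markers was 635 to 702 CPM in young HSCs, 430 to 584 in old HSCs, 3801 to 3804 in cultured controls, 1251 to 1475 in transplanted controls, 4561 to 4628 in CMP, 5697 to 5820 in GMP and 7215 to 7506 in MEP. Among these groups, those with more cycling-marker RNA also had more splicing factor RNA, except that old HSCs lay below young HSCs in the first and level with them in the second. The part of cell cycling in these levels was not tested.

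**Figure D1:**
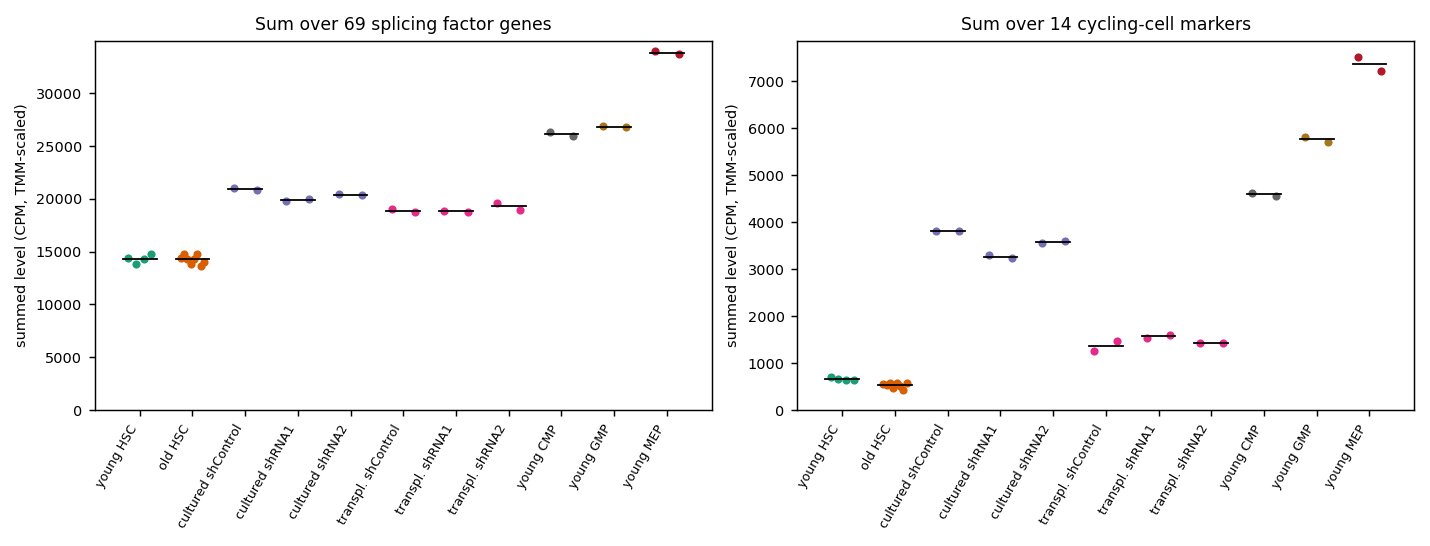
Summed level (CPM, TMM-scaled, linear axes from 0) of the 69 splicing factor genes (left) and of 14 cycling-cell markers (right) in each mRNA-seq library, with points for libraries and lines for group means. Young and old HSCs overlap on the left at 13616 to 14803 CPM, and the MEP libraries lie highest on both sides, at 33743 to 33956 and 7215 to 7506 CPM.

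Promoter sequences are shown for the 5 members on which the results below turn. Snrpn had the largest rise in mRNA with age and was absent from the progenitor counts, and Prpf40b ran against most members across cell types. Prpf8, Hnrnpf and Hnrnph1 had the largest falls in accessibility at a start with age, for Hnrnpf at the least accessible of its start regions. Each is written 5′ to 3′ on the gene's strand, from 250 bases before to 50 bases after a RefSeq transcript start (build GRCm38.p6), and capitals mark a match to 1 of 5 motifs searched on both strands. Snrpn lies at chr7:60005150-60005449 on the minus strand and holds GCGCATG, the core of the NRF1 motif. Prpf40b lies at chr15:99294991-99295290 on the plus strand and holds the E-box CACGTG. Prpf8 lies at chr11:75486527-75486826 on the plus strand, with no match. Hnrnpf lies at chr6:117900090-117900389 on the plus strand and holds the ETS motif CCGGAAG. Hnrnph1 lies at chr11:50376740-50377039 on the plus strand, with no match.
Snrpn: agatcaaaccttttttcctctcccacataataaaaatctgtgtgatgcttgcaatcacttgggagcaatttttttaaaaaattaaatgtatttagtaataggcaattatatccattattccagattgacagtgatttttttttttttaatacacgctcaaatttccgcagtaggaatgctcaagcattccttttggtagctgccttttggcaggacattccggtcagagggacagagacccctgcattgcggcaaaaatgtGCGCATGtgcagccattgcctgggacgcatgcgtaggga
Prpf40b: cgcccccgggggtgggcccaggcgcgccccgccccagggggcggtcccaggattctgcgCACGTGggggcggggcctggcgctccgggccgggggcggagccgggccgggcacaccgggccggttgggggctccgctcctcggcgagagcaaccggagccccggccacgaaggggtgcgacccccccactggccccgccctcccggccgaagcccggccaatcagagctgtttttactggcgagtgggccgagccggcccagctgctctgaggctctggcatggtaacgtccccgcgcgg
Prpf8: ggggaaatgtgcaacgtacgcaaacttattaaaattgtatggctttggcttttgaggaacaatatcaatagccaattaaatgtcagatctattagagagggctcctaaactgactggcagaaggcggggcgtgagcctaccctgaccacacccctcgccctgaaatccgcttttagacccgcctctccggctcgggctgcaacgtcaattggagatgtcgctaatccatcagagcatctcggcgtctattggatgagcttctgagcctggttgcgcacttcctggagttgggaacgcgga
Hnrnpf: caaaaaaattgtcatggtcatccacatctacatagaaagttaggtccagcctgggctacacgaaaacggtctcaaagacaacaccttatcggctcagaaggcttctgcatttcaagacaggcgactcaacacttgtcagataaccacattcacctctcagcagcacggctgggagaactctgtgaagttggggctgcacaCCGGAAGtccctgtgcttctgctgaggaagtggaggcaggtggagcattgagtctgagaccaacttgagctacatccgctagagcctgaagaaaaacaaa
Hnrnph1: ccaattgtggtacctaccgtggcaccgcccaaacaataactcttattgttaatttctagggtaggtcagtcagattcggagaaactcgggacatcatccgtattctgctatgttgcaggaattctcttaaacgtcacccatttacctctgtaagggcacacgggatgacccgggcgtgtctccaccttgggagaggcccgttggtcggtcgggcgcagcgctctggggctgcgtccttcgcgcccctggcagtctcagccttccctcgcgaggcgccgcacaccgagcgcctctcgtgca

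The RefSeq table held 80 promoters for 59 of the 69 members, and the share with each motif is a description, not a binding site. CCGGAAG was found in 31.2% of them against 8.86% of all 32851 promoters of that length, CACGTG in 13.8% against 7.15%, and GCGCATG in 8.75% against 3.91%. Rarer than in all promoters were the letters TATAAA, in 8.75% against 13.6%. The core of the YY1 motif, AAGATGG, was in 3.75% against 6.34%. The promoters also differed in base composition, with a median GC content of 60.17% in members and 52.67% in all promoters, and no share was adjusted for it.

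Aging was examined first, by comparing old with young HSCs. Splicing factor mRNAs moved little: 5 of 69 members were higher and 2 lower in old HSCs, where 11.9% of all 21522 tested genes were higher and 8.67% lower. The median log2 fold change was 0.005 over the members and -0.007 over all genes. Only Snrpn, among the members called, passed a 1.5-fold change, which 4.69% of all genes did upward and 2.83% downward. The design could have shown more, as the median SE was 0.0451 on the log2 scale, and for 66 members the estimate with 2 SE on either side stayed within a 1.5-fold change. The counts moved with single libraries: 2 members were higher without young replicate 2, 3 were higher without young replicate 1 or 3 or old replicate 1, 2 or 5, and 0 were lower without young replicate 1 or 4 or old replicate 4, 7 or 8. Just 1 was lower without young replicate 2 or 3 or old replicate 1.

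Snrpn encodes SmN, which replaces SmB in the Sm ring of snRNPs and is best known from brain. Its level was 5.52, 7.38, 6.19 and 6.42 CPM in the 4 young libraries, and 8.46, 9.64 and 10.3 CPM as the lowest, median and highest of the 8 old ones. Every old library lay above every young one. The log2 fold change was 0.60 (SE 0.096, adjusted p = 4.56e-05, edgeR), a 1.51-fold rise. The gene (chr7:59982495-60140219, minus strand, GENCODE M21) shares 34.1% of its exon bases with other genes, among them Snurf and Gm38393 on its own strand, so its counts may not hold all of its reads. Snrpb, its ubiquitous paralog, was at 221 to 269 CPM in old and 244 to 263 CPM in young HSCs, with a log2 fold change of -0.03 (SE 0.044, adjusted p = 0.694).

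Hnrnph2, an X-linked hnRNP that binds G-rich stretches, was at 147, 131, 144 and 148 CPM in the young libraries, and at 149 to 165 CPM (median 155) in the old ones. The ages did not overlap, and the log2 fold change was 0.15 (SE 0.040, adjusted p = 7.49e-03). Srsf5 was at 916, 910, 954 and 936 CPM in young HSCs and at 967 to 1031 CPM (median 1013) in old ones, again without overlap. Its log2 fold change was 0.13 (SE 0.033, adjusted p = 4.52e-03). The call of Hnrnph2 was lost when young replicate 2, its lowest library, was left out (log2 fold change 0.11, adjusted p = 0.058).

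The other 4 calls had overlapping libraries and were chosen for mention after their values were seen. Hnrnpa2b1 (log2 fold change 0.11, SE 0.037) and Prpf40b (0.15, SE 0.054), a U1-associated factor, were higher in old HSCs. Hnrnph3 (-0.13, SE 0.045) and Srsf7 (-0.12, SE 0.041) were lower. Adjusted p-values of the 4 lay between 0.036 and 0.049 in edgeR's test.

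The genes mutated in human blood cancers showed no call with age. Srsf2 was at 330, 315, 326 and 325 CPM in young and 277 to 321 CPM in old HSCs, a log2 fold change of -0.04 (SE 0.037, adjusted p = 0.565). Sf3b1, the branch-point binding subunit of SF3B, was at 567 to 607 CPM in young and 552 to 611 CPM in old HSCs (0.01, SE 0.035, adjusted p = 0.944). U2af1, which reads the last bases of the intron, gave 0.00 (SE 0.055, adjusted p = 0.978), and Prpf8, the scaffold at the centre of the spliceosome, gave -0.07 (SE 0.058, adjusted p = 0.508). None of these estimates exceeded 1.1-fold, as held for 65 of the 69 members. Hnrnpk (0.04, SE 0.035), Hnrnpa1 (-0.03, SE 0.047), Srsf1 (-0.01, SE 0.032), Srsf3 (-0.05, SE 0.044) and U2af2 (0.03, SE 0.050) were not called either.

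By role, called members were spread thinly. Among the hnRNPs 2 of 20 were higher and 1 lower, among SR proteins 1 of 11 higher and 1 lower, among Prpf proteins 1 of 13 higher, among Sm and snRNP proteins 1 of 13 higher, and none of the 9 SF3 subunits or 3 U2AF genes was called. Outside the members, 4 of 56 other spliceosome genes were higher and 1 lower, and of 36 splicing regulators and SR kinases 4 were higher and 1 lower.

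**Figure D2:**
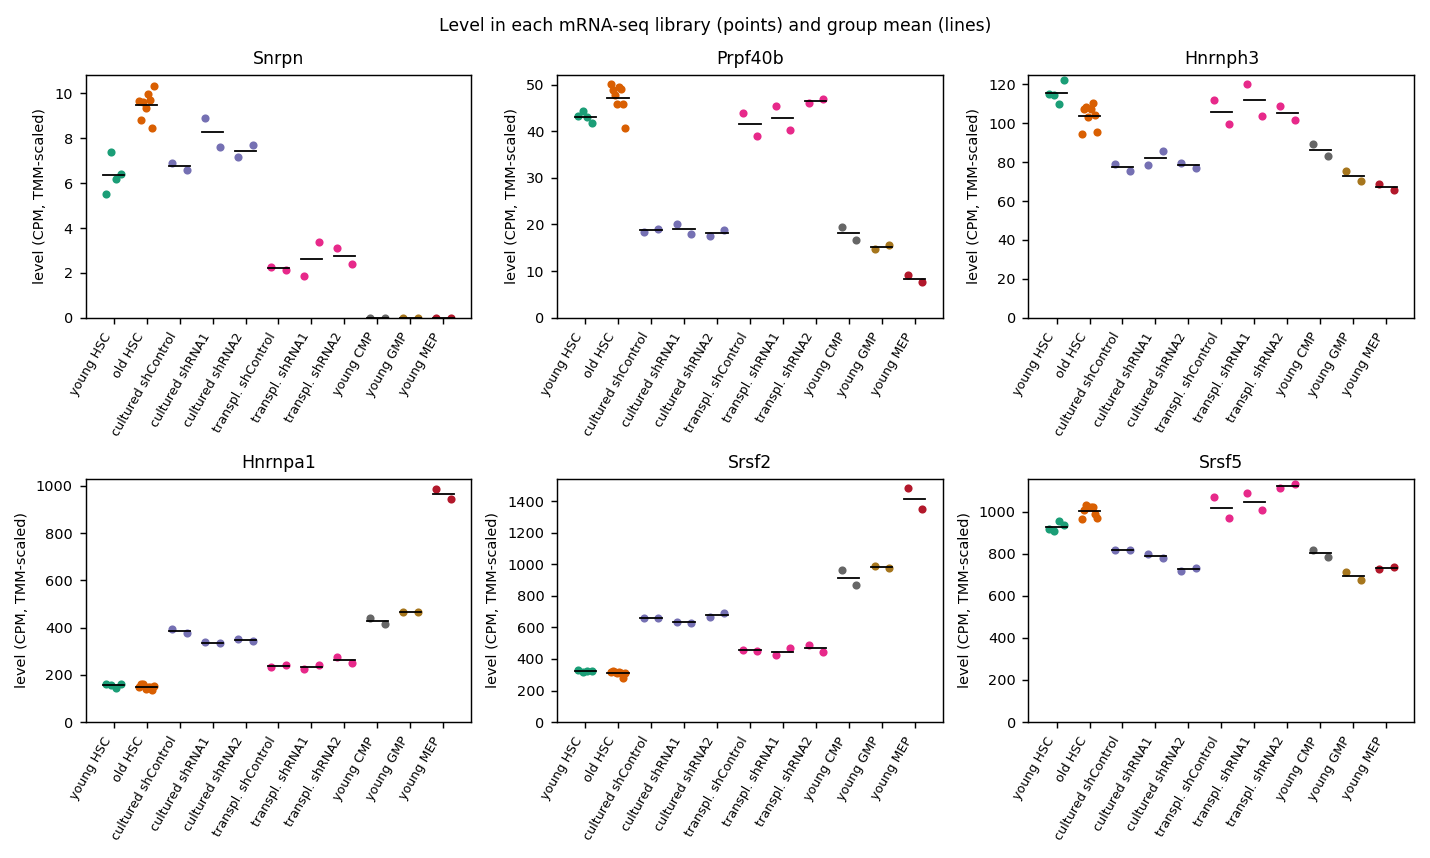
Level (CPM, TMM-scaled, linear axes from 0) of 6 members in each of the 30 mRNA-seq libraries, grouped by cell type, age and treatment, with points for libraries and lines for group means. Snrpn lies at 5.52 to 7.38 CPM in young HSCs, 8.46 to 10.3 CPM in old HSCs and 0 in the CMP, GMP and MEP libraries, while Hnrnpa1 and Srsf2 peak in MEP.

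Chromatin at the members' starts was compared between the ages next. ATAC-seq counts were available over 66 regions that cover an annotated start of 62 members. In old HSCs 39 of these regions were less accessible and 0 were more accessible (edgeR, adjusted p under 0.01), where 26.9% of the 14070 regions over any protein-coding start were lower and 3.59% higher. Over all 89245 regions, 9.54% were lower and 13.7% higher. The median log2 fold change was -0.22 at members' starts, -0.14 at protein-coding starts and -0.01 over all regions. Below 0 lay 97% of the members' regions, 80.7% of the regions over protein-coding starts and 51.3% of all regions. No region was higher at an unadjusted p under 0.05, and DESeq2 also called 0 members' regions higher. The falls were small, with 0 beyond 1.5-fold, beside 2.9% of all regions lower and 10.1% higher by as much, and leaving out any 1 library gave between 26 and 33 lower regions.

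Prpf8 had the largest fall. Its region (chr11:75486343-75487295, mm10) overlaps the promoter printed above and measured 26.3, 24.7, 27.6 and 26.3 CPM in the young ATAC-seq libraries and 17.6, 16.8, 20.4 and 18.2 CPM in the old ones. All old libraries lay below all young ones, and the log2 fold change was -0.53 (SE 0.074, adjusted p = 5.89e-08). Hnrnpf followed at 1 of its 3 start regions (chr6:117900100-117901123), which also overlaps the printed promoter. That region measured 14.8, 13.6, 15.2 and 13.8 CPM in young and 9.79, 9.44, 9.81 and 11.4 CPM in old HSCs, with a log2 fold change of -0.51 (SE 0.097, adjusted p = 3.40e-05). The other 2 Hnrnpf regions fell as well, by 0.37 and 0.22 on the log2 scale. They were more accessible, with young means of 99.8 and 45.9 CPM against 14.3 CPM at the first. Hnrnph1 (chr11:50376889-50378662) went from 65.1 to 71.6 CPM in young to 49.0 to 52.8 CPM in old HSCs, a log2 fold change of -0.45 (SE 0.048, adjusted p = 4.62e-11).

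At the other end stood Snrpn, whose region (chr7:60003887-60005258) measured 18.1, 14.3, 19.6 and 17.6 CPM in young and 18.6, 20.7, 18.3 and 18.2 CPM in old HSCs. The ages overlapped, and the log2 fold change of 0.11 (SE 0.084) was not called (adjusted p = 0.335). Srsf12 (0.02, SE 0.080, adjusted p = 0.868) came next. By role, 14 of 19 hnRNP regions were lower, 8 of 12 SR protein regions, 8 of 13 Prpf regions, 3 of 7 SF3 regions, 5 of 12 Sm and snRNP regions and 1 of 3 U2AF regions. The starts of Srsf2 and Srsf5 fell by as much as that of Hnrnph1, each with a log2 fold change of -0.45. The mRNA of Prpf8, Hnrnpf, Hnrnph1 and Srsf2 was not called between the ages, and that of Srsf5 was higher in old HSCs.

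**Figure D3:**
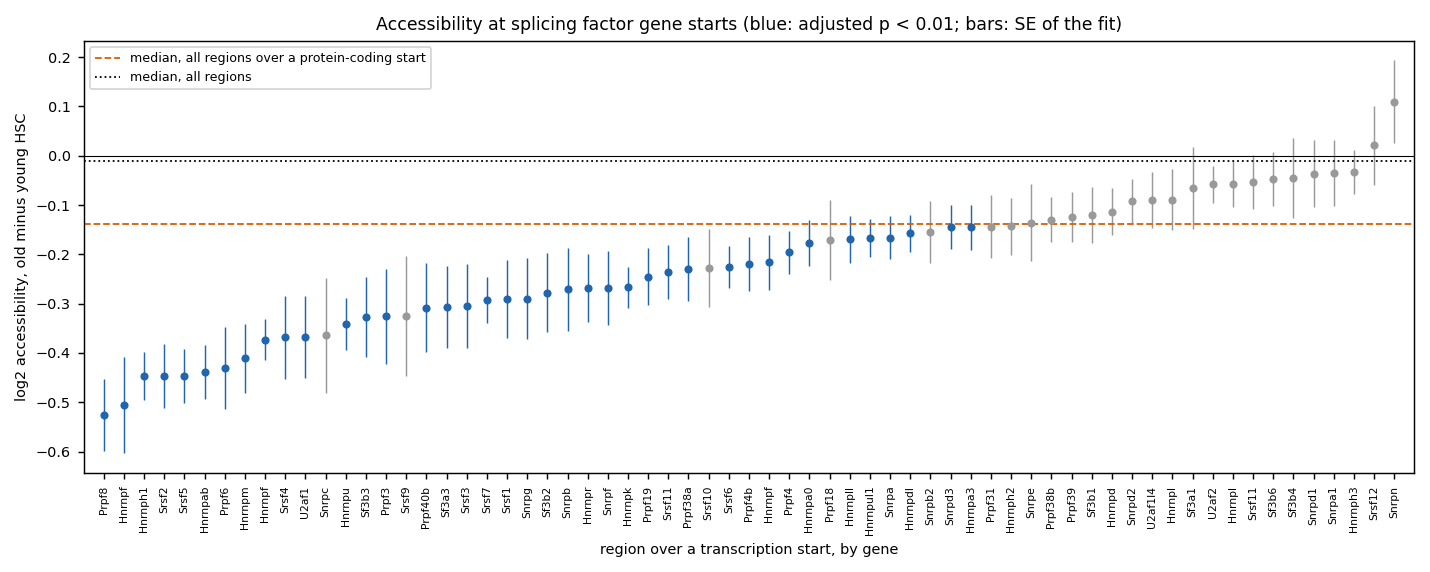
Log2 fold change of ATAC-seq counts, old minus young HSCs, at 65 of the 66 regions over a member's start, ordered by value, with bars of 1 SE of edgeR's fit and blue points for an adjusted p under 0.01. The dashed line at -0.14 is the median of all regions over protein-coding starts, the dotted line at -0.01 the median of all regions, and Prpf8 (-0.53) and Snrpn (0.11) mark the ends.

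H3K27ac, a mark of active promoters and enhancers, was measured over 69 regions at the starts of 66 members. By the study's criterion, a ratio of means above 1.5 that is kept at 1.2 or more in every pairing of an old with a young library, 0 regions were higher and 0 lower, where 2.17% of 11192 regions over protein-coding starts were higher and 0.867% lower, and 9.11% and 2.27% of all 39557 regions. The median log2 ratio was 0.02 at members' starts, -0.03 at protein-coding starts and 0.06 over all regions, and became -0.08, -0.12 and -0.04 once the libraries were scaled to the same median, so the sign at members' starts depends on the scaling. Prpf8 had the highest ratio, 1.35, with signals of 17.5 and 14.3 in young and 21.98 and 20.9 in old HSCs. Snrpn (ratio 1.201, with 2.08 and 1.64 in young against 1.93 and 2.54 in old HSCs) and Snrpb2 (ratio 1.18) followed. The lowest ratios were those of Prpf18 (0.814), Prpf19 (0.850), and Hnrnpab and Hnrnpdl (both 0.853). At the start of Prpf8 the old libraries were thus lower than the young ones in accessibility and higher in H3K27ac signal, although the latter did not meet the criterion.

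In young HSCs, H3K4me3, which marks active and poised promoters, covered the starts of the same number of members, 66, with a median signal of 25.8 against 5.37 over all 33199 peaks. Its lowest signals at members were 6.62 at 1 Hnrnpf start, 8.62 at Snrpn and 9.52 at Srsf12. A domain of H3K27me3, the mark laid down by Polycomb, covered an annotated start of Snrpc alone (chr17:27829000-27838999). Its signal was 0.457, against a median of 0.389 over all H3K27me3 peaks. The domain ended before the H3K4me3 region of Snrpc (chr17:27839318-27840710), so the 2 marks did not overlap there.

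Knockdown in culture was compared next, with all 4 Btaf1 shRNA libraries set against the 2 controls. Btaf1 itself was at 149 and 153 CPM in the controls and 117 to 127 CPM under the shRNAs, a log2 fold change of -0.31 (SE 0.0465, adjusted p = 1.51e-03). This level is counted per gene and pools the shorter variant with canonical Btaf1, so it does not measure the knockdown of the variant. The study quantified the variants separately and reported a loss of the shorter one without a change in the canonical one. Among 68 members tested, Hnrnpa1 was lower and 0 were higher, where 1.66% of the 19763 tested genes were lower and 1.7% higher. DESeq2 also gave 0 higher, and 13 of 68 members had an unadjusted p under 0.05, as did 15.3% of all genes. The median log2 fold change was -0.05 over the members and 0.00 over all genes.

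Hnrnpa1 encodes an hnRNP that often counteracts SR proteins at splice sites. It was at 395 and 377 CPM in the controls, 339 and 333 CPM with shRNA1, and 353 and 341 CPM with shRNA2, so all 4 shRNA libraries lay below both controls. The log2 fold change was -0.18 (SE 0.039, adjusted p = 0.0191). The call was lost without control replicate 1 (log2 fold change -0.15, adjusted p = 0.368), without control replicate 2 (-0.21, adjusted p = 0.115) and without shRNA1 replicate 1 (-0.17, adjusted p = 0.0527). With 1 control left, that library is assumed to vary like the shRNA libraries.

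For 21 members all shRNA libraries lay below both controls, against 1 member, Snrpn, with all of them above (7.18 to 8.90 against 6.61 and 6.92 CPM), where 12.9% of all genes lay below and 12.9% above in this way. Snrpn had a log2 fold change of 0.21 (SE 0.139, adjusted p = 0.525). Srsf5 was at 820 and 820 CPM in the controls, 797 and 778 CPM with shRNA1 and 719 and 733 CPM with shRNA2, a log2 fold change of -0.12 (SE 0.043, adjusted p = 0.179). With shRNA1 alone, 9 members were lower and 0 higher, beside 5.79% and 4.2% of all genes. With shRNA2 alone 5 were lower and 0 higher, beside 4.22% and 3.47%. By an unadjusted p under 0.05 in edgeR with a fold above 1.5, 0 members were higher and 0 lower, beside 2.45% and 0.972% of all genes. The cycling-marker sum was 3801 to 3804 CPM in the controls, 3231 to 3294 CPM with shRNA1 and 3563 to 3603 CPM with shRNA2. The 8 erythroid markers summed to 166 CPM in both controls and 102 to 110 CPM under the shRNAs, with 3 of 5 tested lower. The part of either list in the members' values was not tested. Srsf2 (-0.01, SE 0.040), Sf3b1 (-0.03, SE 0.034), U2af1 (-0.01, SE 0.048) and Prpf8 (-0.07, SE 0.050) were not called. Neither were Hnrnpk (-0.06, SE 0.032), Srsf1 (-0.10, SE 0.039), Srsf3 (-0.06, SE 0.040), U2af2 (-0.05, SE 0.067) and Snrpb (-0.01, SE 0.044). Of 56 other spliceosome genes none was called, and of 36 regulators and SR kinases 1 was lower.

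In HSCs recovered after transplantation, Btaf1 was at 158 and 164 CPM in the controls and 116 to 136 CPM under the shRNAs, with a log2 fold change of -0.37 (SE 0.077) that was not called (adjusted p = 0.791). Here too the level pools both variants, and the study reported the shorter one as knocked down. No member was called either: 0 of 69 were higher and 0 lower, beside 0.0% of the 20350 tested genes in each direction. At an unadjusted p under 0.05 stood 1138 genes (5.59%), of which 0 were members, and DESeq2 called 38 genes higher and 22 lower, again with 0 members. By an unadjusted p with a fold above 1.5, too, 0 members were higher and 0 lower, beside 1.43% and 0.811% of all genes. The median log2 fold change of the members was -0.01, with a median SE of 0.0688. Estimates were -0.14 (SE 0.100) for Prpf8, -0.10 (SE 0.064) for U2af2, 0.01 (SE 0.066) for Srsf2, 0.09 (SE 0.057) for Sf3b1, 0.02 (SE 0.072) for U2af1 and 0.06 (SE 0.080) for Hnrnpa1. Those of Snrpn (0.29, SE 0.289), Srsf5 (0.09, SE 0.065), Srsf1 (0.05, SE 0.051), Srsf3 (-0.03, SE 0.051), Hnrnpk (0.02, SE 0.060) and Snrpb (-0.02, SE 0.050) were of similar or smaller size beside their errors.

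Whether the knockdown effect differed between transplanted and cultured HSCs was tested with an interaction term. For the members, 0 were called in either direction, beside 0.103% of the 21443 tested genes with a higher and 0.107% with a lower difference. An unadjusted p under 0.05 was reached by 9 of 69 members and by 8.75% of all genes. DESeq2 called 0.853% of genes higher and 0.541% lower, among them 1 member, Srsf10, which was named after its values were seen. Srsf10, an SR protein that represses splicing when dephosphorylated, was at 241 and 231 CPM in cultured controls against 205 to 221 CPM under the shRNAs, and at 205 and 198 CPM in transplanted controls against 210 to 225 CPM. In culture all shRNA libraries lay below the controls and after transplantation all lay above. The log2 difference was 0.26 (SE 0.070), with an adjusted p of 0.200 in edgeR. Srsf1, which promotes the use of weak splice sites, was the other member whose shRNA libraries all lay on opposite sides of their controls in the 2 settings, an arrangement seen for 1.79% of all genes, with a log2 difference of 0.15 (adjusted p = 0.4998).

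Progenitors were compared among themselves, in 1 fit over the 6 libraries, and the 3 comparisons share libraries. MEP against CMP gave the widest change: 55 of the 66 members tested were higher and 5 lower, where 28.9% of the 18234 tested genes were higher and 35.6% lower. The median log2 fold change was 0.41 over the members and -0.07 over all genes. A change beyond 1.5-fold was seen for 18 members higher and 1 lower, beside 17.5% of all genes higher and 29.2% lower. MEP also had more cycling-marker RNA, with 12 of the 14 cycling markers higher and 2 lower, and its part in the result was not tested.

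Hnrnpa1 led the rise. It was at 441 and 414 CPM in CMP, 465.7 and 465.5 CPM in GMP and 987 and 944 CPM in MEP, so MEP stood apart. The log2 fold change of MEP over CMP was 1.16 (SE 0.045, adjusted p = 6.47e-11), and over GMP 1.00 (SE 0.045, adjusted p = 2.53e-10). Snrpg, a core Sm ring protein, rose from 176 and 163 CPM in CMP to 315 and 315 CPM in MEP (0.88, SE 0.054, adjusted p = 6.93e-09). Sf3b4, an SF3B subunit that contacts the pre-mRNA near the branch point, rose from 166 and 163 to 292 and 285 CPM (0.80, SE 0.051, adjusted p = 1.01e-08). U2af2, the large U2AF subunit that binds the polypyrimidine tract, rose from 111 and 103 to 183 and 187 CPM (0.78, SE 0.058). Hnrnpll, a regulator of Cd45 splicing in lymphocytes, rose from 153 and 140 to 245 and 254 CPM (0.76, SE 0.056).

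Against this direction, Prpf40b fell from 19.5 and 16.7 CPM in CMP to 9.07 and 7.68 CPM in MEP (-1.13, SE 0.157, adjusted p = 2.61e-05). Hnrnph3 (-0.37, SE 0.074), Hnrnpr (-0.33, SE 0.049), Hnrnph1 (-0.17, SE 0.049) and Srsf5 (-0.15, SE 0.043) were the other members called lower, and their libraries did not overlap. Hnrnph1 and Hnrnph3 belong with Hnrnph2 and Hnrnpf to the hnRNP H family, and Hnrnph2 was at 229 and 219 CPM in CMP against 293 and 288 CPM in MEP.

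Of the genes mutated in human blood cancers, Srsf2 (963 and 868 CPM in CMP, 1481 and 1348 CPM in MEP) rose by 0.61 (SE 0.054) on the log2 scale, U2af1 (210 and 201 against 315 and 315 CPM) by 0.60 (SE 0.048) and Prpf8 (207 and 205 against 270 and 286 CPM) by 0.42 (SE 0.051). Sf3b1 was not called: it was at 809 and 865 CPM in CMP and 818 and 855 CPM in MEP (-0.02, SE 0.046, adjusted p = 0.792). Srsf1 (0.59, SE 0.041), Snrpb (0.50, SE 0.041), Srsf3 (0.30, SE 0.043), Hnrnpa2b1 (0.24, SE 0.037) and Hnrnpk (0.23, SE 0.038) were higher in MEP too.

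By role, all 12 Sm and snRNP genes tested and both U2AF genes tested were higher in MEP than CMP, as were 16 of 20 hnRNPs, 8 of 10 SR proteins, 7 of 9 SF3 subunits and 10 of 13 Prpf proteins. Among other spliceosome genes 40 of 56 were higher and 6 lower, and among regulators and SR kinases 15 of 36 were higher and 14 lower. Srsf12, U2af1l4 and Snrpn fell below the filter on low counts in the progenitors and were not tested there.

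GMP differed from CMP less. Of 66 members, 26 were higher and 5 lower, beside 18.8% and 16.0% of all tested genes, the median log2 fold change was 0.10 over the members and 0.01 over all genes, and 0 members changed beyond 1.5-fold, which 6.24% of all genes did upward and 10.5% downward. Of the 14 cycling markers 11 were higher in GMP and 1 lower, and their part in the result was not tested. Hnrnpll was again raised, at 211 and 216 CPM in GMP (0.58, SE 0.056, adjusted p = 4.20e-06). Sf3b5, a small SF3B subunit, was at 161 and 150 CPM in GMP and 121 and 108 CPM in CMP (0.48, SE 0.065, adjusted p = 8.78e-05). Prpf31, a tri-snRNP protein, followed with 0.39 (SE 0.051), the U1 protein Snrpc with 0.36 (SE 0.071) and U2af2 with 0.32 (SE 0.059). Hnrnpr (-0.29, SE 0.049), Hnrnph3 (-0.21, SE 0.074), the kinase Prpf4b (-0.18, SE 0.064), Srsf7 (-0.18, SE 0.039) and Srsf5 (-0.17, SE 0.043) were lower. The count of higher members was 16 without CMP replicate 2, 13 without GMP replicate 1, and 16 without a filter on low counts, under which 8 were lower. Without GMP replicate 2, 3 were lower.

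Of the panel genes, U2af1 (0.22, SE 0.048), Hnrnpa1 (0.16, SE 0.045) and Srsf1 (0.15, SE 0.041) were called higher in GMP. The last 2 calls were lost without CMP replicate 2 (adjusted p = 0.157 and 0.091), without GMP replicate 1 (0.076 and 0.116) and without a filter on low counts (0.082 and 0.0997), and that of Hnrnpa1 also without GMP replicate 2 (0.064). Log2 fold changes stayed between 0.11 and 0.16 in these fits. Among the members called lower, Hnrnph3 lost its call without either CMP library or GMP replicate 2, Prpf4b without CMP replicate 2 or GMP replicate 1, and Srsf5 without GMP replicate 2. Srsf2 (0.14, SE 0.054, adjusted p = 0.065), Sf3b1 (-0.04, SE 0.046), Prpf8 (0.02, SE 0.051), Srsf3 (0.05, SE 0.043), Hnrnpk (0.02, SE 0.038) and Snrpb (0.07, SE 0.041) were not called.

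MEP against GMP gave 51 members higher and 2 lower, beside 27.7% and 33.7% of all tested genes, with a median of 0.28 over the members and -0.03 over all genes. Beyond 1.5-fold, 6 members were higher and 1 lower, beside 16.6% and 27.2% of all genes. Of the cycling markers 9 were higher in MEP than in GMP and 3 lower, and again their part was not tested. After Hnrnpa1, the largest rises were those of the tri-snRNP protein Prpf3 (84.7 and 96.8 CPM in GMP, 159 and 148 CPM in MEP, 0.71, SE 0.073) and of Prpf4b (0.69, SE 0.064). Sf3b4 (0.69, SE 0.051) and Snrpg (0.62, SE 0.054) came next. Prpf40b (-0.91, SE 0.158) and Prpf31 (-0.14, SE 0.051) were lower in MEP, and Prpf31 lost its call without either GMP library or MEP replicate 2 (adjusted p from 0.072 to 0.217).

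**Figure D4:**
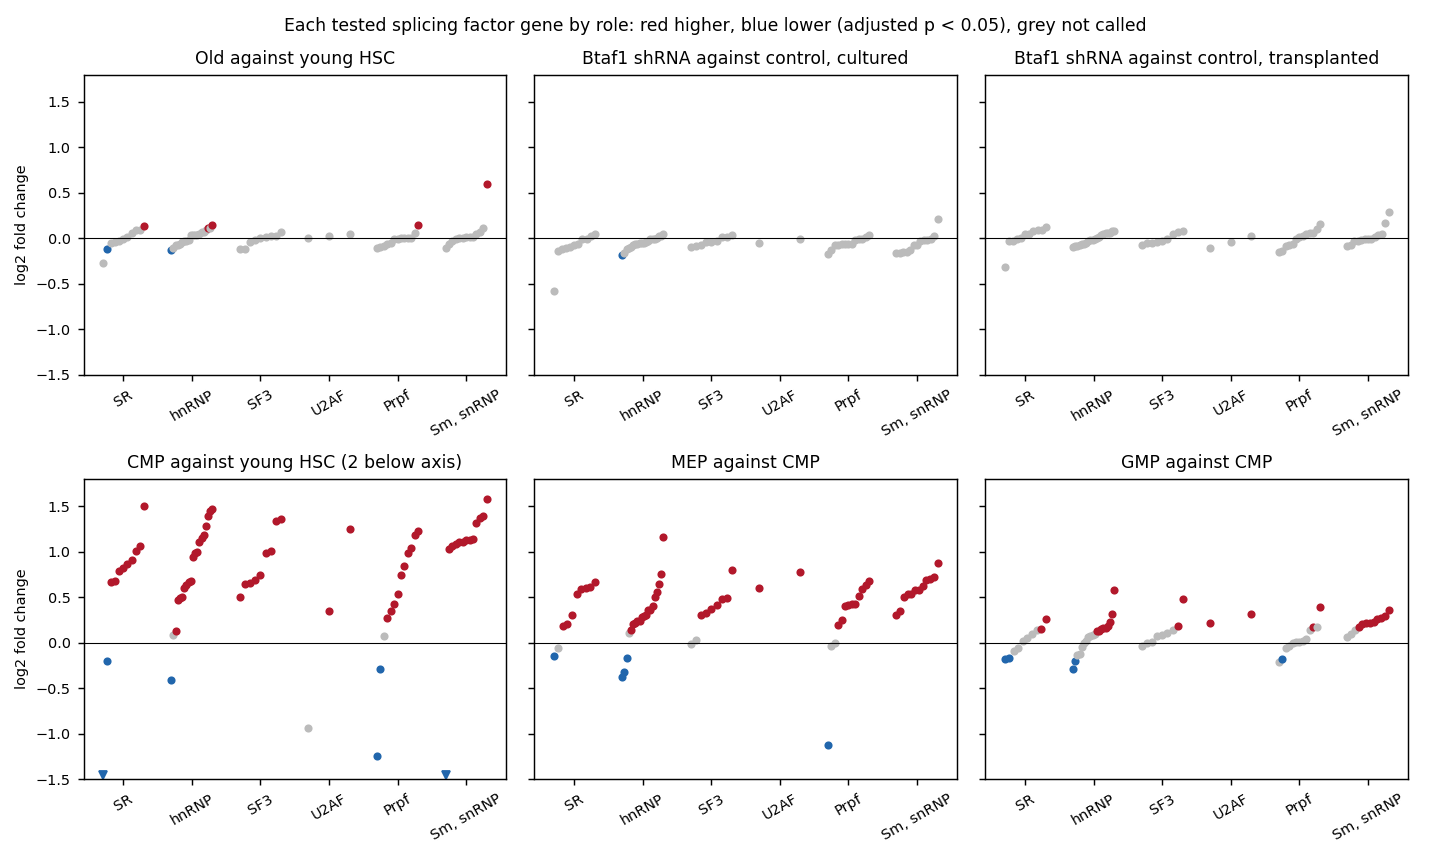
Log2 fold change of each tested member, grouped by role on the horizontal axis, in 6 comparisons (red higher, blue lower at an adjusted p under 0.05 in edgeR, grey not called). Members lie near 0 with age and after Btaf1 knockdown and mostly above 0 in CMP against young HSCs and in MEP against CMP, and triangles mark Srsf12 and Snrpn, which lie below the axis in CMP against young HSCs.

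Stem cells were then set beside progenitors. In CMP against young HSCs 60 of 69 members were higher and 6 lower, beside 33.5% and 47.6% of the 22360 tested genes. The median log2 fold change was 0.90 over the members and -0.33 over all genes, and 50 members were higher and 3 lower by more than 1.5-fold, beside 23.3% and 40.8% of all genes. The 2 cell types were prepared as separate sets. The labels give total RNA for the HSCs and polyA RNA for the progenitors, while the study's methods name a SMART-Seq kit for the HSCs, so cell type and library set cannot be told apart. All 14 cycling markers were higher in CMP as well, and their part in the result was not tested.

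Srsf2 rose from 315 to 330 CPM in young HSCs to 963 and 868 CPM in CMP (1.51, SE 0.038, adjusted p = 1.94e-16). Hnrnpa1 rose from 142 to 162 CPM to 441 and 414 CPM (1.47, SE 0.049), and Hnrnpm, an hnRNP with a role in alternative exon choice, from 282 to 298 CPM to 810 and 749 CPM (1.44, SE 0.037). Snrpa1, a U2 snRNP protein, rose from 52.8 to 59.6 CPM to 147 and 149 CPM (1.39, SE 0.057). The pseudogene Snrpert, with 2.97 to 3.5 CPM in HSCs and 9.21 and 9.41 CPM in CMP (1.58, SE 0.156), may hold reads of its parent gene and is uncertain.

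Of the panel, U2af1 (1.25, SE 0.051), Snrpb (1.14, SE 0.038), Hnrnpk (0.94, SE 0.029), Srsf3 (0.82, SE 0.035), Srsf1 (0.79, SE 0.034), Sf3b1 (0.51, SE 0.036) and U2af2 (0.35, SE 0.056) were higher in CMP, and so was Hnrnpa2b1 (1.11, SE 0.030). By role, all 9 SF3 subunits were higher, with 18 of 20 hnRNPs, 12 of 13 Sm and snRNP genes, 9 of 11 SR proteins, 10 of 13 Prpf proteins and 2 of 3 U2AF genes. Of the other spliceosome genes 49 of 56 were higher and 1 lower, and of the regulators and SR kinases 28 of 36 were higher and 5 lower.

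Of the 6 members lower in CMP, Snrpn, Srsf12 and Prpf40b passed a 1.5-fold change. Snrpn had 0 reads in all 6 progenitor libraries, against 149, 179, 154 and 174 reads in the young HSC libraries. With a floor of 3 counts over each progenitor group, young HSCs were at least 136-fold higher than CMP, at least 114-fold higher than GMP and at least 122-fold higher than MEP. Without molecular identifiers, the floor covers counting error alone. Srsf12 was at 5.23, 3.21, 4.46 and 3.14 CPM in young HSCs, with 4 and 0 reads in the CMP libraries, 2 and 0 in the GMP libraries and 0 in both MEP libraries, so young HSCs were at least 76.8-fold higher than MEP. Against CMP its fitted log2 fold change was -5.90, a value that depends on the prior count at so few reads. Srsf12 passed the filter on low counts there only through the young HSC libraries, so the size of the difference is not resolved.

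Prpf40b, whose yeast homolog bridges the ends of the intron, was at 43.3, 44.4, 43.0 and 41.8 CPM in young HSCs and at 19.5 and 16.7 CPM in CMP (-1.24, SE 0.085, adjusted p = 2.29e-10). GMP, at 14.8 and 15.6 CPM, overlapped neither CMP nor MEP, but GMP was not called against CMP (-0.22, adjusted p = 0.305). Hnrnph3 (-0.41, SE 0.056), Prpf8 (-0.28, SE 0.070) and Srsf5 (-0.20, SE 0.033) were the remaining members called lower in CMP than in young HSCs. Prpf8 was at 252, 227, 241 and 290 CPM in young HSCs against 207 and 205 CPM in CMP.

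Control HSCs in culture were finally compared with control HSCs after transplantation. In culture 45 of 69 members were higher and 10 lower, beside 24% and 24.3% of the 19518 tested genes, with a median of 0.24 over the members and -0.01 over all genes. Beyond 1.5-fold stood 6 of 69 members higher and 2 lower, beside 12.6% and 15.2% of all genes. The sort gate differed with the setting, so the 2 cannot be told apart, and the sequencer of the cultured libraries is not known here. All 14 cycling markers were higher in culture while 7 of 9 LT-HSC markers were lower. The 8 megakaryocyte progenitor markers summed to 2046 to 2050 CPM in culture and 1125 to 1317 CPM after transplantation, with 3 of 7 tested higher and 1 lower, and the part of these markers in the result was not tested. With 1 library left out, between 31 and 46 members were higher.

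Snrpn was at 6.92 and 6.61 CPM in culture and 2.26 and 2.13 CPM after transplantation (1.62, SE 0.210, adjusted p = 2.85e-04). Hnrnpl, an hnRNP that binds CA-rich stretches, was at 391 and 393 CPM against 209 and 260 CPM (0.75, SE 0.093). Hnrnpa1, at 395 and 377 CPM against 234 and 243 CPM (0.70, SE 0.048), and Prpf31, at 229 and 218 CPM against 139 and 141 CPM (0.68, SE 0.051), were higher too. The pseudogene Snrpert gave 0.83 (SE 0.179).

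Lower in culture were Srsf12 (0.255 and 0.466 CPM against 1.61 and 3.29 CPM, -2.76, SE 0.495) and Prpf40b (18.4 and 19.1 CPM against 43.8 and 39.1 CPM, -1.14, SE 0.101, adjusted p = 2.92e-05). Hnrnph3 (-0.45, SE 0.074), Prpf39 (-0.36, SE 0.052), a U1-associated protein, and Prpf18 (-0.35, SE 0.064), which acts in the second step of splicing, came next. Srsf5 was lower as well (-0.31, SE 0.051). Prpf40b thus measured 39.1 to 50.0 CPM in freshly sorted HSCs of both ages and in transplanted control HSCs from old donors. In cultured controls and progenitors it measured 7.68 to 19.5 CPM, with no overlap between these libraries. Srsf2 (0.54, SE 0.041), U2af1 (0.39, SE 0.050), Srsf1 (0.35, SE 0.042), Prpf8 (0.34, SE 0.084), Snrpb (0.21, SE 0.043) and Hnrnpk (0.13, SE 0.037) were higher in culture. Without cultured replicate 1 or 2, Prpf8 (0.34 and 0.35) and Hnrnpk (0.12 and 0.16) lost their calls at log2 fold changes of similar size. Snrpb (0.21) did so without cultured replicate 2. Sf3b1 (-0.11, SE 0.042, adjusted p = 0.059), U2af2 (0.01, SE 0.061) and Srsf3 (-0.01, SE 0.045) were not called.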

How the data were processed

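Gene counts of the 30 mRNA-seq libraries were deposited raw by the authors, who trimmed reads with trim galore and cutadapt, mapped them on mm10 using STAR and ran featureCounts with GENCODE release 22. ATAC-seq values were deposited by the authors as raw counts per consensus region. The histone values are a signal per peak that the authors scaled to a common number of reads per library and averaged over bins of the genome, with no further detail on how a peak's value was formed. The 92 spike-in rows were left out, and 8 columns of per-sample values that no listed sample matched were not used. Columns holding the authors' own fold changes were not used.

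Counts were tested with edgeR 4.0.16 in R 4.3.3 (TMM, filterByExpr, robust quasi-likelihood fit, Benjamini-Hochberg over all genes), and accessibility likewise for regions above 1.5 CPM in at least 4 libraries. DESeq2 1.42.0, limma 3.58.1 on log2(signal + 0.5), other scalings, no filter, a replicate block and leaving out each library were alternatives. Standard errors are edgeR's, and ± gives standard deviations. Pairs of mRNA-seq libraries within a group were checked for duplicates, and each differed beyond counting noise.

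Members named are a panel of 11 genes, the 5 largest called changes without overlap each way per comparison, the 3 highest and 3 lowest levels, and the 3 largest promoter changes each way, of which 1 is not reported here. The members, lists and tests were chosen with earlier results of these data known. Gene places and lengths came from GENCODE release 21, and promoter sequences from RefSeq. The scripts were tested on simulated counts.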

Additional observations from a re-analysis of the deposited data

Results flagged for a closer look

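Levels of named members, sums by role and accessibility at members' starts were checked for a library standing apart from the rest of its group, and 6 of 68 checks found one, where chance gives about 1 in 20. In old HSCs, Prpf40b was at 40.7 CPM in replicate 8, below 45.7 to 50.0 CPM in the other 7 libraries, and Prpf8 was at 273 CPM in replicate 6, above 221 to 245 CPM in the others. Old replicate 7 was low for 2 SR protein genes, Srsf1 (366 CPM against 383 to 396 CPM) and Srsf2 (277 CPM against 311 to 321 CPM). In young HSCs, U2af2 was at 78.3 CPM in replicate 2, against 86.2 to 87.5 CPM in the other 3 libraries. The start of Snrpn measured 20.7 CPM of accessibility in old replicate 6, against 18.2 to 18.6 CPM in the other old libraries.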

How the results depend on the processing

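Values are counts of members, or of regions over their starts. With age, members higher (5) numbered 3 with DESeq2's size factors, 3 without a filter on low counts and 1 with a fold limit of 1.5, and members lower (2) numbered 0 and 0 under the last 2 settings. With the replicate number as a block, the age comparison gave 2 higher and 0 lower, and Srsf5 had a log2 fold change of 0.14 (adjusted p = 0.0599). In culture, members lower after knockdown (1) numbered 2 without a filter, 9 with shRNA1 alone, 5 with shRNA2 alone, and 0 either with the fold limit or by an unadjusted p under 0.05 with that limit. The difference between the knockdown effects gave 1 higher with DESeq2. The fold limit gave 18 higher and 1 lower for MEP against CMP, 0 and 0 for GMP against CMP, 6 and 1 for MEP against GMP, 3 lower for CMP against young HSCs, 6 and 2 for culture against transplantation, and 0 regions of lower accessibility. GMP against CMP gave 16 higher and 8 lower without a filter. At members' starts, limma called 1 H3K27ac region higher, and 1 with a replicate block. Causes of these shifts were not tested, except that the fold limit narrows the calls by construction.

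Leaving out 1 library gave 2 to 6 higher and 0 to 3 lower with age, 0 to 1 lower in culture, 52 to 54 higher for MEP against CMP, 13 to 22 higher and 3 to 4 lower for GMP against CMP, 46 to 48 higher and 1 to 2 lower for MEP against GMP, 59 to 60 higher for CMP against young HSCs, 31 to 46 higher and 8 to 14 lower for culture against transplantation, 26 to 33 less accessible regions, and 0 to 1 lower H3K27ac regions. Replicate numbers are not stated to mark pairs. Same-numbered libraries deviated together with correlations from -0.054 to 0.192. The highest were those of CMP with GMP (0.192) and of transplanted control with shRNA1 libraries (0.179). In groups of 2 libraries both replicate numbers give the same value, so the check cannot tell whether same-numbered libraries share animals or batches. The block moved no other count by more than 1.5 times. For the members named by the rule, 1430 alternative values kept their side of the threshold, 26 lost a call, 4 gained one and 0 changed direction.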
